A study of Homo sapiens with 8 samples.

Results

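Metallothioneins are small cysteine-rich proteins that hold zinc and copper in the cell. The genes described here are 6 metallothioneins (MT1E, MT1F, MT1G, MT1M, MT1X and MT2A), the zinc-sensing transcription factor MTF1, and SLC30A1, the exporter that carries zinc out across the plasma membrane. They were chosen by gene symbol, and 7 of the 8 had a row among the 18937 genes of the authors' deposited comparison tables. MT1M had none and was read from the transcript files alone. The cells were HT29, a human line from a colorectal adenocarcinoma, and RNA was sequenced in 8 libraries. A pair of libraries came from cells given vehicle (DMSO, 0.1%), and a pair each from cells given 10 µM ICG-001, 1.5 µM CWP232228 or 0.3 µM YB-0158, so that the 4 groups held 2 libraries each. ICG-001 is known as an antagonist of the coactivator CBP in its interaction with beta-catenin. Treatment lasted 48 h, except in replicate 2 of the ICG-001 pair and of the CWP232228 pair, which are labelled 49 h. Whether the replicates were separate cultures is not labelled. The p-values therefore cover the spread among these libraries alone, and that spread may be technical.

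When free zinc rises in a cell, MTF1 is known to bind short metal response elements in DNA and to switch on metallothionein genes and SLC30A1. The metallothioneins then bind the metal and SLC30A1 exports it. In the colon epithelium this system buffers zinc and copper taken up from the diet. The metallothionein genes lie side by side on chromosome 16, and their transcripts are short and alike.

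The libraries held 29071547 to 58489118 estimated reads, and 16449 genes were tested, 7 of the 8 chosen genes among them. All 8 markers of colon epithelium were detected and tested, with a summed level of 10500 to 16100 CPM (counts relative to a library size scaled by TMM). That sum is mostly KRT8 and KRT18, and it was 13900 to 16100 CPM with DMSO and 10500 to 12600 CPM with the 3 compounds. The markers did not move one way: 4 were called higher and 4 lower with ICG-001 and with YB-0158, and 3 higher and 4 lower with CWP232228. Of 5 fibroblast markers, which together reached 4.33 to 6.09 CPM, COL1A2 was at 0 in every library. Of 5 leukocyte markers CD3E was at 0 and PTPRC had at most 1 read, and nearly all of the summed 2490 to 2880 CPM was LYZ, which intestinal epithelium also makes. The 4 endothelial markers reached 0.87 to 1.74 CPM. The DMSO replicates stood apart from each other. Their log2 difference had an SD of 0.33 over 11335 genes, against 0.16 to 0.17 within the compound groups, and it followed the GC content of the genes (Spearman's rho -0.59 for replicate 1 minus 2, across genes, which are not independent replicates). The replicate differences of the compound groups followed it with the opposite sign (0.52 to 0.71). The metallothioneins had a transcript GC content of 51.0% (MT1X) to 62.5% (MT1M), MTF1 46.7% and SLC30A1 38.0%. For this reason values after a correction for GC content and length are given beside the changes from DMSO. How far GC content accounts for a change was not tested further.

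The 6 metallothionein genes span chr16:56608199-56684196 of GRCh38, or 76.0 kb. From the left they are MT2A (56608199 to 56609497), MT1E (56625475 to 56627112), MT1M (56632233 to 56633986), MT1F (56657694 to 56660698), MT1G (56666731 to 56668065, the only 1 of the 6 on the minus strand) and MT1X (56682424 to 56684196). MTF1 lies at chr1:37809567-37859620 and SLC30A1 at chr1:211571568-211578742, both on the minus strand. RefSeq promoters on GRCh38.p14 were at hand for 4 of the 8 genes, and their 250 bases before the start were searched for the core of the metal response element, TGCACNC or TGCGCNC, on both strands. MT2A held 7 cores (5 on the plus strand), MT1X 4 (3 on the plus strand), SLC30A1 1 and MTF1 0. Of 35116 promoters searched in the same way, 24.8% held at least 1 core, 0.37% at least 4 and 0.0313% at least 7. Cores are in capitals in the stretches of MT1X, MT2A and SLC30A1 given here, which are shown because MTF1 is known to act through such elements. A match is a description of the letters, not a measured binding site. The MT1X and SLC30A1 stretches lie upstream of the annotated starts in both RefSeq and GENCODE. GENCODE starts MT2A further upstream, so for it only 30 bases with 2 of its cores are shown. The stretches are chr16:56682220-56682423 (plus strand), chr16:56608408-56608437 (plus strand) and chr1:211579162-211579411 (minus strand).
MT1X: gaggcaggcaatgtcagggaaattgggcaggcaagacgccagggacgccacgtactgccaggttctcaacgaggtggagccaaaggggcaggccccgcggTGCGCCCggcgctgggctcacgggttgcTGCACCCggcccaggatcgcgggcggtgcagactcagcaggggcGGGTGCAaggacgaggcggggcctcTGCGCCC
MT2A: cgcggcccGTGTGCAgagccgggTGCGCCC
SLC30A1: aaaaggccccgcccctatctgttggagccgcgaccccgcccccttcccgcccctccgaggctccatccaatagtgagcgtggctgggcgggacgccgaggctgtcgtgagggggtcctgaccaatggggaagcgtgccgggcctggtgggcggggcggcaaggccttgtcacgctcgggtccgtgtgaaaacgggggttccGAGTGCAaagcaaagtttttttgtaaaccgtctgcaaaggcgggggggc

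MT1E held the most reads of the metallothioneins in these cells. Compared per length in TPM, Salmon's length-adjusted abundance, the DMSO libraries held MT1E at 325 ± 4.72 (SD, n = 2), MT2A at 105 ± 1.95 and MT1X at 21.9 ± 1.77. MTF1 at 6.1 ± 3.68, MT1F at 4.87 ± 0.231 and SLC30A1 at 4.73 ± 1.94 TPM followed and did not differ from each other beyond their spread. Of the MTF1 value, 5.04 and 1.01 TPM were a short processed transcript, and 3.66 and 2.49 TPM the coding one. MT1G came last at 1.33 ± 0.0703 TPM. Of the MT1E value, 270 and 265 TPM were a 332-base transcript with an effective length of 82 bases. A 704-base MT1E transcript held 56.9 and 54.5 TPM, and the main MT2A transcript 94.1 and 94.8 TPM. The rank of MT1E over MT2A per length thus rests on how Salmon divided the MT1E reads. By reads, MT1E made up 65.4% and 67.4% of all metallothionein reads in the DMSO libraries and 58.2% to 64.0% in the 6 treated libraries. MT2A made up 24.7% and 26.5% with DMSO and 27.5% to 33.9% with the compounds. MT1M had 1 read, in YB-0158 replicate 1, and 0 in the other 7 libraries, where a count of 0 allows up to 0.0545 to 0.103 CPM. Such limits cover counting error only.

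Metallothionein RNA was lower with each of the 3 compounds. Reads of all 21 metallothionein genes and pseudogenes, summed so that the division of shared reads between them does not matter, reached 87.2 and 96.4 CPM with DMSO. They reached 61.6 and 56.3 CPM with ICG-001, 72.8 and 62.7 CPM with CWP232228, and 55.8 and 54.9 CPM with YB-0158. In CPM no treated library reached the lower DMSO library. In TPM, the length-adjusted abundance, 1 did: the sum was 479 and 462 with DMSO and 463 and 384 with CWP232228. It was 366 and 342 TPM with ICG-001 and 342 and 329 TPM with YB-0158. The sum fell by 35.8% with ICG-001 (log2 fold change -0.64, SE 0.1; edgeR quasi-likelihood test, Benjamini-Hochberg adjusted p = 0.001). It fell by 26.2% with CWP232228 (-0.44, SE 0.1; edgeR adjusted p = 0.0085). With YB-0158 it fell by 39.7% (-0.73, SE 0.1; edgeR adjusted p = 0.00063). After the GC and length correction the log2 change was -0.13 with ICG-001 (adjusted p = 0.28), 0.06 with CWP232228 (0.69) and -0.34 with YB-0158 (0.018), so that only the last remained past the threshold. Without CWP232228 replicate 2 the change with CWP232228 was -0.33 (adjusted p = 0.079). Lower content in each cell and fewer expressing cells cannot be told apart in bulk RNA.

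**Figure D1:**
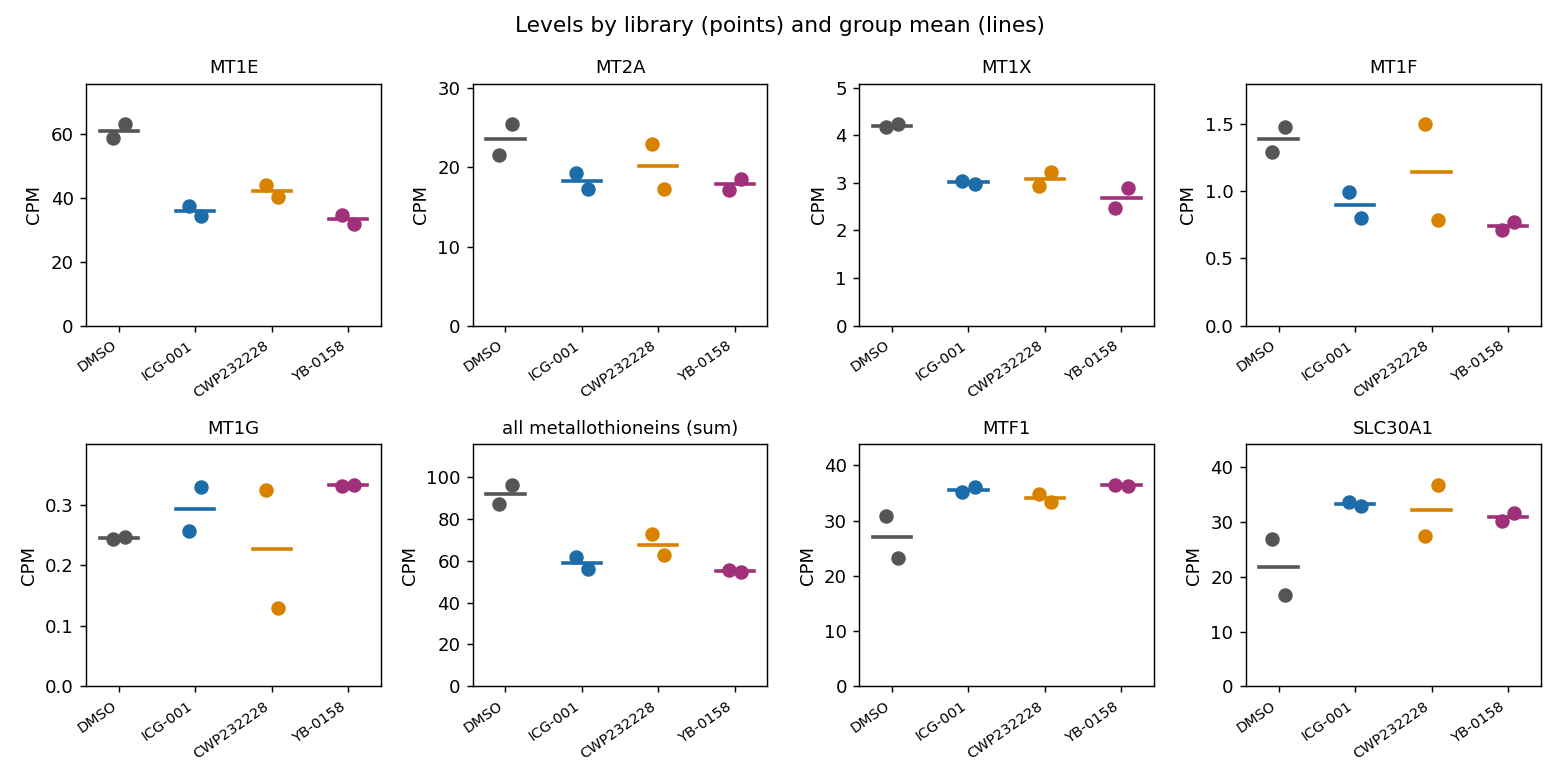
Level of each tested gene and of all metallothioneins summed, in CPM on axes that start at 0, for each library (points) and as the group mean (lines), in 4 groups of 2 libraries. MT1E, MT1X and the sum are lower in all 6 treated libraries than in both DMSO libraries, and the DMSO points of MTF1 and SLC30A1 lie far apart.

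Of the 7 genes tested, 3 passed an adjusted p of 0.05 with ICG-001, 2 lower and 1 higher. In that comparison 48.8% of all genes were called, 24% lower and 24.8% higher. With CWP232228, 2 were called, both lower, where 42.8% of all genes were called (21.2% lower, 21.6% higher). None was higher there by edgeR, although 2 were at an unadjusted p under 0.05 and DESeq2 called 1. With YB-0158, 3 were called, 2 lower and 1 higher, where 43.8% of all genes were called (22.1% lower, 21.7% higher). The shares of the chosen genes that were called are thus near those of all genes. Their median log2 change was -0.36, -0.22 and -0.40 with ICG-001, CWP232228 and YB-0158, beside 0.03, 0.04 and 0.02 over all genes tested. Corrected for GC content and length, the members' median was -0.02, -0.08 and -0.06, beside 0.05, 0.05 and 0.04 over all genes. With the correction 1 member was called with each compound (MT1E, lower, with ICG-001 and YB-0158, and MT2A, higher, with CWP232228), where 46.5%, 24.7% and 43.5% of all genes were called.

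MT1E carried most of the difference. It stood at 58.8 and 63.1 CPM with DMSO, at 37.5 and 34.4 with ICG-001, at 44.0 and 40.1 with CWP232228, and at 34.6 and 31.9 with YB-0158. The groups with a compound did not overlap with DMSO. How many of all genes were separated in this way was not counted, and 42.8% to 48.8% of all genes were called against DMSO. Such separation, for MT1E and for the genes below, is thus a description only. MT1E fell with ICG-001, to 0.59 times the DMSO level (log2 -0.76, SE 0.09; edgeR adjusted p = 0.00034), with CWP232228, to 0.69 times (-0.54, SE 0.09; 0.0033), and with YB-0158, to 0.546 times (-0.87, SE 0.09; 0.00022). After the GC and length correction it was lower by less: -0.33 with ICG-001 (adjusted p = 0.019) and -0.55 with YB-0158 (0.0015), both still called, and -0.12 with CWP232228 (0.4), no longer called. Corrections for effective length gave -0.27 with CWP232228 (adjusted p = 0.16). The authors' deposited table lists MT1E at log2 -0.54 with ICG-001 (adjusted p = 0.0011), -0.24 with CWP232228 (0.15) and -0.59 with YB-0158 (0.00036). Whether the authors' fold changes were shrunken toward 0 is not given in the sources used here, so the sizes in their deposited table cannot be set directly against those of the fits above.

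The reads of MT1E were divided by Salmon mainly between 2 annotated transcripts. The 704-base transcript (ENST00000306061) held 33.2 and 34.4 CPM with DMSO, 17.7 and 15.4 with ICG-001, 17.6 and 19.3 with CWP232228, and 14.4 and 14.3 with YB-0158. The 332-base transcript (ENST00000568293) held 24.9 and 27.7 CPM with DMSO, 18.7 and 18.0 with ICG-001, 25.6 and 19.9 with CWP232228, and 19.3 and 17.3 with YB-0158. The longer transcript was lower in every treated library, while the shorter overlapped with DMSO in 1 CWP232228 library. The longer one's share of MT1E reads was 54.6% and 56.4% with DMSO and 40.1% to 48.1% in the treated libraries. The division is an estimate, since both transcripts lie in the same gene. The shorter has an effective length of only 82 bases and so makes up most of the TPM of MT1E. Of the exact runs of 31 bases in the longer transcript, 15.3% also occur in another gene, most of them in the pseudogene MT1JP, which had at most 5 reads in any library.

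**Figure D2:**
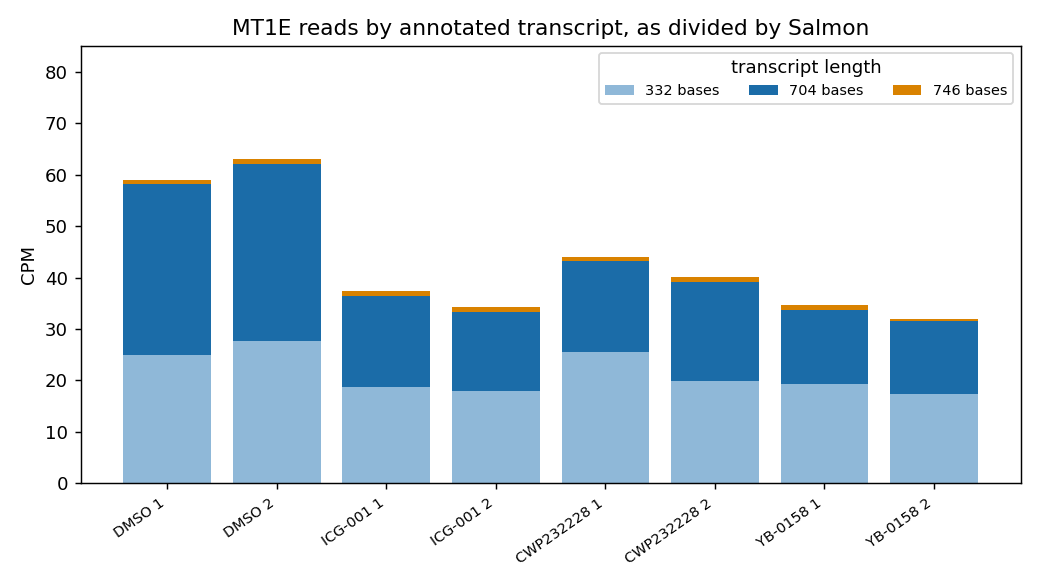
MT1E reads in CPM by library, stacked by annotated transcript (332, 704 and 746 bases) as Salmon divided them. The 704-base part is 33.2 and 34.4 CPM in the DMSO libraries and 14.3 to 19.3 CPM in the treated ones, while the 332-base part runs from 17.3 to 27.7 CPM.

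MT1X, another metal-inducible member, was also lower. It had 4.17 and 4.24 CPM with DMSO, 3.05 and 2.97 with ICG-001, 2.93 and 3.23 with CWP232228, and 2.47 and 2.89 with YB-0158, and no treated library overlapped with DMSO. The log2 change was -0.48 with ICG-001 (SE 0.15; edgeR adjusted p = 0.031), -0.45 with CWP232228 (SE 0.16; 0.047) and -0.65 with YB-0158 (SE 0.16; 0.01). The first 2 calls were close to the threshold. Corrected for GC content and length, the changes were -0.13, -0.13 and -0.42, with adjusted p of 0.55, 0.61 and 0.073, and DESeq2 gave changes of -0.49, -0.46 and -0.66 with adjusted p of 0.17, 0.21 and 0.057. The call with ICG-001 was also lost without either DMSO or either ICG-001 library (-0.50 to -0.46; adjusted p 0.053 to 0.13), that with CWP232228 without any 1 of the 8 libraries (-0.52 to -0.38; 0.062 to 0.19), and that with YB-0158 without its replicate 1 (-0.55; 0.082). Of the 31-base runs of the main MT1X transcript 48.1% occur in another gene, 32.4% in the overlapping AC026461.1, which had 0 reads in every library.

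MT2A, the second member by reads and the one with 7 cores, did not pass the test with any compound. It stood at 21.6 and 25.5 CPM with DMSO, at 19.3 and 17.3 with ICG-001, at 23.0 and 17.3 with CWP232228, and at 17.2 and 18.6 with YB-0158. CWP232228 replicate 1 lay within the DMSO range, and the other treated libraries lay below it. The log2 changes were -0.36 (95% interval -0.70 to -0.02; edgeR adjusted p = 0.072), -0.22 (-0.57 to 0.12; 0.25) and -0.40 (-0.74 to -0.06; 0.059) with ICG-001, CWP232228 and YB-0158. MT2A has a GC content of 61.4%. The correction for GC content and length turned the direction, to 0.29 (adjusted p = 0.069), 0.43 (0.029, called higher) and 0.14 (0.38). Without DMSO replicate 1 the changes with ICG-001 and YB-0158 were called, at -0.47 (adjusted p = 0.033) and -0.51 (0.026), and without either CWP232228 library that with YB-0158 was called at -0.39 (0.042). Without DMSO replicate 2 the changes of MT2A were -0.25 (adjusted p = 0.26), -0.11 (0.64) and -0.28 (0.21), and without CWP232228 replicate 2 that with CWP232228 was -0.03 (0.91).

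MT1F and MT1G had few reads. MT1F had 24 to 54 reads in a library, at 1.29 and 1.48 CPM with DMSO, 0.991 and 0.802 with ICG-001, 1.50 and 0.783 with CWP232228, and 0.714 and 0.768 with YB-0158. Of its CWP232228 replicates 1 lay above and 1 below both DMSO libraries. The log2 changes of MT1F were -0.62, -0.28 and -0.90 (edgeR adjusted p = 0.15, 0.52 and 0.054) with ICG-001, CWP232228 and YB-0158, and -0.02, 0.34 and -0.37 after the GC and length correction (0.97, 0.47 and 0.37). Without either CWP232228 library its change with YB-0158 was called, at -0.90 (adjusted p = 0.032 and 0.029). MT1G had 4 to 19 reads in a library, or 0.13 to 0.333 CPM, and its changes of 0.25, -0.10 and 0.43 had 95% intervals of -0.89 to 1.38, -1.33 to 1.12 and -0.69 to 1.55. Corrected, they were 0.64, 0.26 and 0.69, none called. The intervals of MT1G span 0 widely, and 31.4% of the 31-base runs of one of its main transcripts occur in other genes.

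MTF1 and SLC30A1 pointed the other way, and the result rested on 1 DMSO library. MTF1 had 30.8 and 23.2 CPM with DMSO, 35.1 and 36.0 with ICG-001, 34.9 and 33.3 with CWP232228, and 36.5 and 36.3 with YB-0158. All 6 treated libraries lay above both DMSO libraries in CPM. In TPM they did not: DMSO held 8.7 and 3.5, ICG-001 8.41 and 8.56, CWP232228 8.96 and 5.09, and YB-0158 7.71 and 5.29. These values include a 413-base processed transcript (ENST00000468190) with few reads, at 5.04 and 1.01 TPM with DMSO. The coding transcript (ENST00000373036) alone held 3.66 and 2.49 TPM with DMSO and 4.06 to 4.33 TPM in the treated libraries. The log2 change of MTF1 was 0.40 (SE 0.12; edgeR adjusted p = 0.027) with ICG-001, 0.34 (SE 0.12; 0.056) with CWP232228 and 0.43 (SE 0.12; 0.021) with YB-0158. Without DMSO replicate 2 it was 0.19 (adjusted p = 0.087), 0.13 (0.25) and 0.23 (0.051). Without DMSO replicate 1 it was 0.62, 0.56 and 0.66, each called (adjusted p = 0.00022, 0.00052 and 0.00018). Leaving out either ICG-001 library, either CWP232228 library or YB-0158 replicate 1 also ended the call with ICG-001 (adjusted p 0.051 to 0.11), and leaving out either YB-0158 library that with YB-0158 (0.085 and 0.098). The direction turned with the GC and length correction, to -0.09, -0.12 and -0.06 (adjusted p = 0.29, 0.21 and 0.5). With effective lengths MTF1 was at 0.44, 0.15 and 0.06 (adjusted p = 0.43, 0.81 and 0.93) and with limma on log2(FPKM + 0.1) at 0.52, 0.18 and 0.12 (0.37, 0.78 and 0.85), so that both calls ended. The effective lengths were weighted by transcript TPM, so the short processed transcript enters them too. The authors' deposited table lists MTF1 at log2 0.26, 0.06 and 0.02 (adjusted p = 0.4, 0.82 and 0.95).

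SLC30A1, the zinc exporter, had 26.8 and 16.7 CPM with DMSO, 33.7 and 33.0 with ICG-001, 27.5 and 36.8 with CWP232228, and 30.1 and 31.7 with YB-0158. All treated libraries lay above DMSO, but the DMSO replicates differed by more than any pair of treated replicates in proportion to their level. The log2 change of SLC30A1 was 0.62 (95% interval 0.10 to 1.13; edgeR adjusted p = 0.052), 0.56 (0.04 to 1.08; 0.077) and 0.50 (-0.01 to 1.02; 0.1) with ICG-001, CWP232228 and YB-0158, so none passed. DESeq2 called all 3, at 0.60 (adjusted p = 0.012), 0.55 (0.025) and 0.50 (0.043). Without DMSO replicate 1 the changes were 1.01, 0.95 and 0.89, each called (adjusted p = 0.00097, 0.0016 and 0.002), and without DMSO replicate 2 they were 0.30, 0.24 and 0.19 (0.14, 0.25 and 0.35). After the GC and length correction they were 0.09, -0.08 and 0.07 (adjusted p = 0.53, 0.65 and 0.62). The authors' deposited table lists SLC30A1 at log2 0.61 (adjusted p = 0.0088), 0.43 (0.056) and 0.52 (0.027). No 31-base run of its transcript occurs in another gene.

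**Figure D3:**
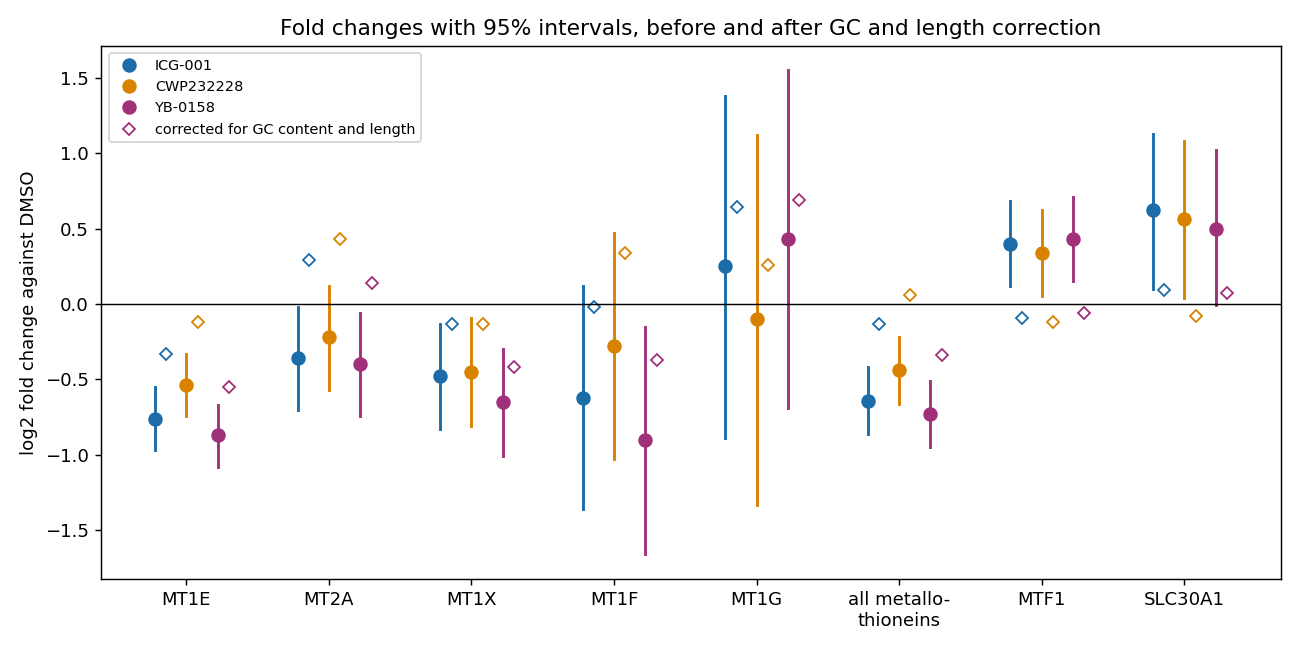
Log2 fold change against DMSO for each tested gene and for all metallothioneins summed, with ICG-001, CWP232228 and YB-0158: filled points with 95% intervals come from the fit without correction, and open diamonds are the values after the GC and length correction. The correction moves the metallothioneins up and MTF1 and SLC30A1 down, for example MT1E with YB-0158 from -0.87 to -0.55 and SLC30A1 with ICG-001 from 0.62 to 0.09.

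The compounds were given at different doses, so their values stand side by side and a difference between them is one between treatments as given. None of the 7 genes was called by edgeR between any 2 compounds. Over all genes, 6.82% were called between CWP232228 and ICG-001 (3.65% higher with CWP232228, 3.17% lower), 0.00608% between YB-0158 and ICG-001, and 7.78% between YB-0158 and CWP232228 (3.56% higher with YB-0158, 4.21% lower). At an unadjusted p under 0.05 these 3 comparisons held 1, 0 and 1 of the 7 genes, and DESeq2 called 0, 0 and 1. The gene in question was MT1E. It was higher with CWP232228 than with ICG-001 by a log2 difference of 0.23 (95% interval 0.02 to 0.44; adjusted p = 0.19; 0.21 and 0.17 after the GC and length correction), and lower with YB-0158 than with CWP232228 by one of -0.34 (-0.55 to -0.13; adjusted p = 0.061). The latter passed in DESeq2 (-0.33; adjusted p = 0.041) and after the GC and length correction (-0.43; 0.015, where 18.2% of all genes were called). It also passed with only the 4 libraries compared (-0.34; 0.017). It did not pass with RLE size factors (-0.33; adjusted p = 0.071), without the low-count filter (-0.32; 0.051) or with a replicate block (-0.34; 0.089). Nor did it pass with effective lengths (-0.35; 0.24) or limma on log2(FPKM + 0.1) (-0.34; 0.25). Leaving out 1 library at a time gave -0.40 to -0.27. Between YB-0158 and ICG-001 the MT1E difference was -0.11, with an interval of -0.32 to 0.10. For SLC30A1 the 3 differences were -0.05 (-0.56 to 0.45), -0.11 (-0.62 to 0.39) and -0.06 (-0.57 to 0.45), intervals that allow a difference as large as that from DMSO.

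Of 15 other metallothionein genes and pseudogenes, 9 had 0 reads in every library, 13 had at most 5 in any, and 2 were tested. MT1A, a metal-inducible member, had 18 and 33 reads with DMSO, 19 and 14 with ICG-001, 25 and 21 with CWP232228, and 21 and 10 with YB-0158, in libraries of unequal depth. In CPM it was at 0.626 and 1.17 with DMSO, 0.349 and 0.33 with ICG-001, 0.814 and 0.685 with CWP232228, and 0.366 and 0.256 with YB-0158. MT1A fell with ICG-001 (log2 -1.39, SE 0.4; edgeR adjusted p = 0.019) and YB-0158 (-1.50, SE 0.4; 0.016), and was at -0.26 (0.61) with CWP232228. MT3, the growth-inhibitory member best known from brain, had 8 and 17 reads with DMSO, 5 and 2 with ICG-001, 6 and 11 with CWP232228, and 3 and 0 with YB-0158. MT3 was called lower with ICG-001 (adjusted p = 0.022) and YB-0158 (0.0088), and not with CWP232228 (0.45). Without DMSO replicate 2 none of these 4 calls held: the adjusted p for MT1A was 0.15 with ICG-001 and 0.12 with YB-0158, and for MT3 it was 0.14 and just over 0.05. Corrected for GC content and length, MT1A was at -1.03, 0.07 and -1.26 with ICG-001, CWP232228 and YB-0158, the first and the last still called, and MT3 was called with YB-0158 alone. The difference of CWP232228 from the other compounds did not pass for either gene.

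Zinc transporters moved in both directions. Of 9 further SLC30 exporters 6 were tested, and 4 were higher and 0 lower with each compound. Among all genes 24.8%, 21.6% and 21.7% were called higher with ICG-001, CWP232228 and YB-0158. SLC30A5, SLC30A6 and SLC30A7 load zinc into the secretory pathway, and SLC30A9 is a mitochondrial transporter. SLC30A7 rose by a log2 of 0.81, 0.92 and 0.79 with ICG-001, CWP232228 and YB-0158 (edgeR adjusted p = 0.013, 0.011 and 0.017), by 0.51, 0.61 and 0.49 without DMSO replicate 2, and by 1.19, 1.29 and 1.16 without DMSO replicate 1, each called. SLC30A5 rose by 0.66, 0.65 and 0.56 (adjusted p = 0.0022, 0.0039 and 0.0055). The list's median was 0.57, 0.54 and 0.47, and after the GC and length correction 0.19, 0.20 and 0.18, with 3, 2 and 3 called higher, where 25.7%, 15% and 23.6% of all genes were called higher. SLC30A5 and SLC30A9 kept the call with all 3 compounds after the correction, while SLC30A7 did not with any (0.14, 0.15 and 0.20; adjusted p = 0.18, 0.2 and 0.071).

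Of 14 SLC39 importers 12 were tested. With ICG-001 and with CWP232228, 3 were higher and 5 lower, and with YB-0158, 2 were higher and 4 lower. Among all genes 24.8%, 21.6% and 21.7% were called higher and 24%, 21.2% and 22.1% lower with ICG-001, CWP232228 and YB-0158. The median of the 12 was -0.11, -0.12 and -0.15, and -0.06, 0.06 and 0.01 after the GC and length correction, which turned its sign with CWP232228 and YB-0158. SLC39A14, a plasma membrane importer of zinc, iron and manganese, stood at 58.3 ± 5.77 CPM (SD, n = 2) with DMSO, 99.9 ± 0.332 with ICG-001, 84.8 ± 5.11 with CWP232228 and 95.6 ± 3.81 with YB-0158. It rose by 0.78, 0.54 and 0.71 (edgeR adjusted p = 0.00027, 0.0029 and 0.00046), and by 0.57, 0.36 and 0.50 after the correction, each still called. SLC39A5, an importer on the basolateral side of intestinal cells, fell from 11.9 ± 2.27 CPM, by log2 changes of -1.36, -0.67 and -0.97 (edgeR adjusted p = 0.00033, 0.012 and 0.0018). After the correction SLC39A5 was at -0.87 and -0.51 with ICG-001 and YB-0158, both called, and at -0.12 with CWP232228 (adjusted p = 0.45). SLC39A7, which releases zinc from the endoplasmic reticulum, fell with each compound (-0.44, -0.41 and -0.31), as did SLC39A1 (-0.37, -0.32 and -0.29). The correction left SLC39A7 called with all 3 compounds (-0.23, -0.17 and -0.14) and SLC39A1 with none (-0.08, 0 and -0.03). Over the list the corrected counts were 4 higher and 4 lower with ICG-001, 2 and 1 with CWP232228, and 4 and 4 with YB-0158. For all genes the corrected shares were 25.7%, 15% and 23.6% higher and 20.9%, 9.66% and 19.8% lower, in the same order.

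Metallothioneins also bind copper, and genes of copper handling were counted in the same way. All 9 were tested: 2 were higher and 6 lower with ICG-001 and with CWP232228, and 2 higher and 4 lower with YB-0158. The shares over all genes were 24.8%, 21.6% and 21.7% higher and 24%, 21.2% and 22.1% lower with ICG-001, CWP232228 and YB-0158. SLC31A1, the main copper importer, had 61.7 and 52.5 CPM with DMSO, 129 and 134 with ICG-001, 96.7 and 92.3 with CWP232228, and 122 and 125 with YB-0158. It rose by a log2 of 1.2, 0.73 and 1.11 (edgeR adjusted p = 3.6e-05, 0.0011 and 6.2e-05), and by 0.85, 0.37 and 0.78 after the GC and length correction, each still called. SLC31A2, a related transporter of internal membranes, fell with each compound (-1.09, -0.97 and -1.14), as did SOD1, the copper and zinc superoxide dismutase (-0.61, -0.49 and -0.61). Both kept their calls after the correction, SLC31A2 at -0.99, -0.87 and -1.05 and SOD1 at -0.43, -0.34 and -0.44. CCS, the chaperone that hands copper to SOD1, fell too (-0.55, -0.64 and -0.59) and was at 0.04, -0.01 and -0.05 after the correction. The corrected counts for copper handling were 1 higher and 2 lower with ICG-001 and CWP232228, and 1 and 3 with YB-0158. The median was -0.44, -0.43 and -0.33 before the correction and -0.05, -0.07 and -0.06 after it. Over all genes 25.7%, 15% and 23.6% were called higher and 20.9%, 9.66% and 19.8% lower after the correction.

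Of 9 stress genes that heavy metals are known to induce, all tested, 4 were higher and 3 lower with ICG-001 and with YB-0158, and 3 were higher and 4 lower with CWP232228. Their median log2 change was 0.02, -0.15 and -0.26 with ICG-001, YB-0158 and CWP232228. Corrected for GC content and length it was 0.48, 0.20 and 0.10, with 5 higher and 1 lower, 4 and 1, and 3 and 2, so that its sign turned with YB-0158 and CWP232228. Among all genes 24.8%, 21.7% and 21.6% were called higher and 24%, 22.1% and 21.2% lower, in that order of compounds. After the correction 25.7%, 23.6% and 15% of all genes were called higher and 20.9%, 19.8% and 9.66% lower. Genes of thiol metabolism were among the listed genes that rose. SLC7A11, the cystine importer, went from 35.7 ± 14.5 CPM (SD, n = 2) with DMSO to 198 ± 13.2, 153 ± 8.41 and 187 ± 10.0 with ICG-001, CWP232228 and YB-0158, a log2 rise of 2.47, 2.10 and 2.39 (edgeR adjusted p = 0.00052, 0.002 and 0.00068). TXNRD1, thioredoxin reductase, rose by 1.00, 0.48 and 0.92, and SRXN1, sulfiredoxin, by 0.73 and 0.61 with ICG-001 and YB-0158, with 0.15 (adjusted p = 0.15) for CWP232228. After the GC and length correction SLC7A11 was at 1.74, 1.19 and 1.79 and TXNRD1 at 0.80, 0.27 and 0.75, each called. SRXN1 was then at 0.86 and 0.71 with ICG-001 and YB-0158 and was called with CWP232228 too, at 0.31 (adjusted p = 0.0043). Without DMSO replicate 2 the SRXN1 change with CWP232228 was 0.21, and without DMSO replicate 1 it was 0.08. HSPA1A, a heat shock chaperone, fell (-0.38, -0.55 and -0.32), but it has a near-identical copy in HSPA1B, so its own value is uncertain. After the correction it was at -0.04, -0.16 and -0.01 (adjusted p = 0.43, 0.027 and 0.88), called with CWP232228 alone.

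**Figure D4:**
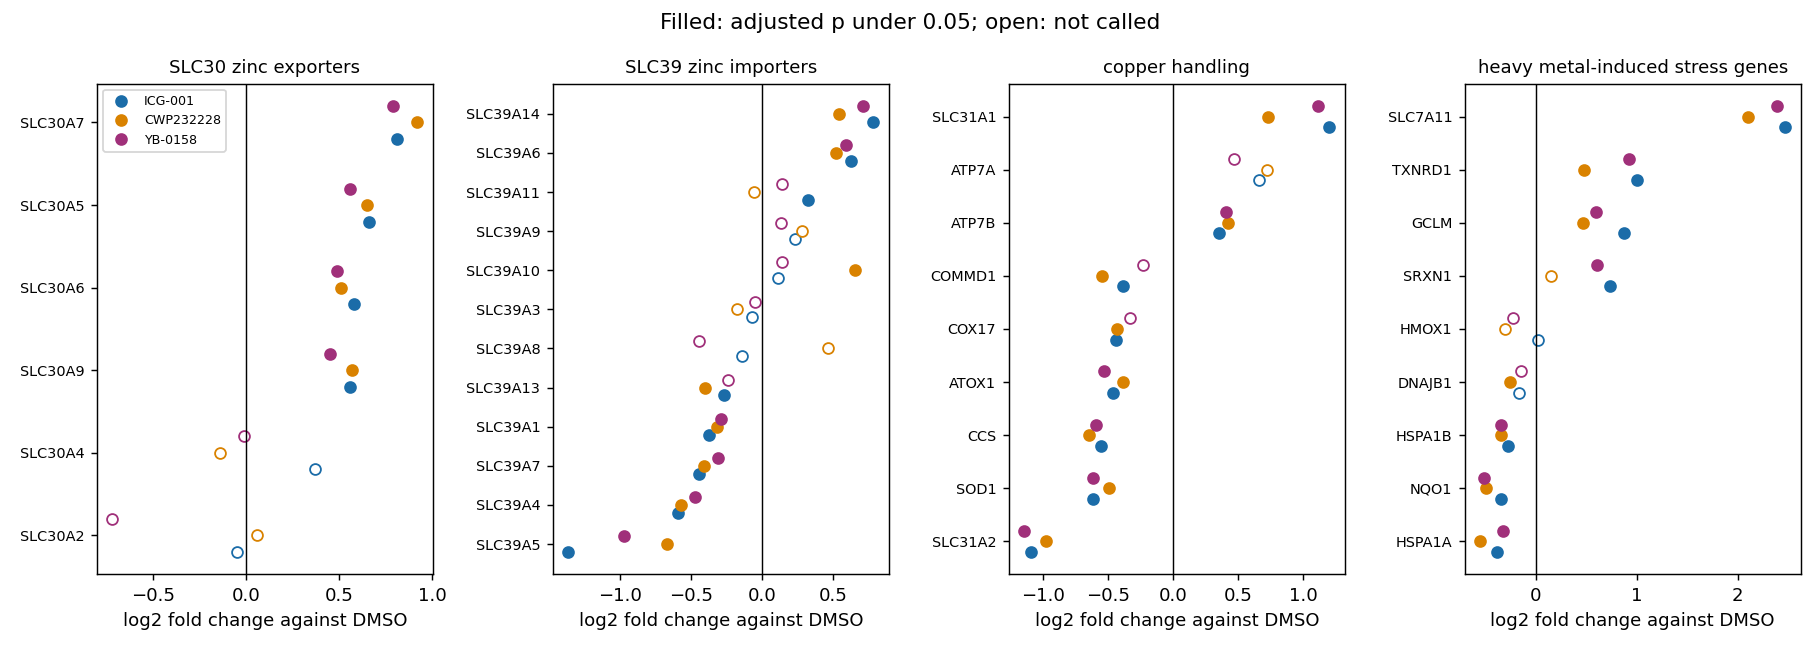
Log2 fold change against DMSO of the tested genes of 4 lists (SLC30 zinc exporters, SLC39 zinc importers, copper handling, heavy metal-induced stress genes) with ICG-001, CWP232228 and YB-0158. Filled points passed an adjusted p of 0.05 and open points did not, and the values are those before the GC and length correction. SLC7A11, SLC31A1 and SLC39A14 lie to the right with every compound, and SLC39A5 and SLC31A2 to the left.

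Among 10535 other genes of sufficient level, those whose log2 CPM followed MT1E most closely over the 8 libraries were LRRC45 (Pearson's r = 0.997), DEGS2, AVPI1, TTC38 and WNK4 (each 0.994). LRRC45, for example, went from 69.2 ± 3.9 CPM (SD, n = 2) with DMSO to 31.3 ± 2.77, 40.7 ± 4.25 and 29.3 ± 1.1 with ICG-001, CWP232228 and YB-0158, the same order of groups as MT1E. Those closest to SLC30A1 were RAB27B (0.991), NAPG (0.985), SLC35F5 (0.982), FHIP2A (0.981) and HYCC2 (0.979). RAB27B stood at 12.1 ± 6.1 CPM with DMSO and at 23.1 ± 0.427, 23.7 ± 5.65 and 21.7 ± 1.04 with the compounds, with the same wide spread of the DMSO pair as SLC30A1. These correlations are descriptions over libraries that share their groups, depth and base composition.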

How the data were processed

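RNA of 8 HT29 libraries was analysed. Per the labels' protocols, libraries were made from total RNA with the TruSeq RNA v2 kit, which does not mark strand. Named in the submitters' processing notes are GRCh38, Salmon 1.3.0, fastp and DESeq2. The deposited transcript files give, per the file headers, Salmon's estimated counts and TPM. The authors' deposited tables give each gene's mean as a normalized signal, its log2 fold change against DMSO, p-values, and FPKM per library. Which annotation release the authors used is not given in the sources used here.

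For the tests, counts were summed per gene through GENCODE release 29, matched by identifier without version (204677 of 228754 transcripts, 89.5%; 1.54% to 1.85% of the reads were not matched), and rounded. edgeR 4.0.16 in R 4.3.3 fitted all 8 libraries in 4 groups with its robust quasi-likelihood test (TMM scaling, filterByExpr, 4 residual degrees of freedom). Adjusted p-values are Benjamini-Hochberg over 16449 genes, and a gene was called at an adjusted p under 0.05. Alternatives were DESeq2 1.42.0, other scalings and filters, splines on GC content and length, effective lengths, limma 3.58.1 on log2(FPKM + 0.1), a replicate block and leaving out each library. GC content came from GENCODE sequences, and 90.7% of the matched transcripts had the same length there as in the files. Among those that differed were the main transcripts of MT1F, MT1M, MT1X, MT2A, MTF1 and SLC30A1.

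All 8 chosen genes are described. For the other lists at most 4 genes with the smallest p have values. The genes and lists were chosen with earlier results of these data known. Genes most alike were the 5 with the highest Pearson r at an average log2 CPM of at least 2.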

Additional observations from a re-analysis of the deposited data

How the results depend on the processing

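With only 2 libraries a group and DMSO replicates that differ along GC content, the values against DMSO are the least secure, and MT1F and MT1G rest on few reads, with wide intervals. Why values moved under an alternative was not tested. The GC and length correction left 1 of the 7 genes called with ICG-001 and with YB-0158 (lower) and 1 with CWP232228 (MT2A, higher), and 1 between YB-0158 and CWP232228. It moved the metallothionein sum to -0.13 with ICG-001 and 0.06 with CWP232228, MT2A to 0.29, 0.43 and 0.14 and MTF1 to -0.09, -0.12 and -0.06 with ICG-001, CWP232228 and YB-0158. With CWP232228 it also moved MT1F to 0.34, MT1G to 0.26 and SLC30A1 to -0.08, and SLC30A1 between YB-0158 and CWP232228 to 0.15. That last difference was 0.06 with effective lengths and 0.07 with limma on log2 FPKM, against -0.06. Limma gave the sum as -0.27 with CWP232228 and 1 gene called there, and effective lengths 0, where 3472 and 3368 of all genes were called. With only the 4 libraries compared, 1 gene was called with ICG-001, 1 with CWP232228 and 1 between YB-0158 and CWP232228, where DESeq2 also called 1. The calls over all genes were 6088, 4144 and 3293 with only the 4 libraries, and 1586 with DESeq2 in the last comparison. With no low-count filter 6 were called with YB-0158, where 8079 of all genes were called, against 7209 in the main fit. 

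The labels do not say that replicate numbers mark a shared batch, and the replicate differences of DMSO correlated with those of the compounds at -0.21, -0.26 and -0.19 over 11335 genes. The fit with a replicate block called 3, 1 and 3 genes with ICG-001, CWP232228 and YB-0158; MT1X with CWP232228 was at -0.45 (adjusted p = 0.061). The replicate block with the GC and length correction called 1 in each and 1 between YB-0158 and CWP232228. It gave the sum as -0.13 with ICG-001 and 0.06 with CWP232228, MT2A as 0.29, 0.43 and 0.14, MTF1 as -0.09, -0.12 and -0.06, MT1F as 0.31, MT1G as 0.24 and SLC30A1 as -0.07 with CWP232228, and SLC30A1 as 0.15 between YB-0158 and CWP232228. A replicate block with the DMSO numbers crossed, chosen after seeing the data, called 5, 4 and 6. It called 8796, 7963 and 8136 of all genes, against 8025, 7042 and 7209 in the main fit.

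Leaving out 1 library at a time leaves 1 in its group. The number of genes called then moved with the library left out, both among the chosen genes and over all genes. The sum with CWP232228 ran from -0.54 to -0.33, and MT1F from -0.82 to 0.12 and MT1G from -0.89 to 0.41 there. SLC30A1 ran from -0.28 to 0.14 between CWP232228 and ICG-001 and from -0.25 to 0.17 between YB-0158 and CWP232228. With the metallothionein reads summed into 1 feature there is no count of members. RLE size factors changed no count of called genes by over 1.5 times.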
